A study of Apis mellifera with 12 samples.

Results

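Among the genes of the honey bee queen brain, 20 of the 13038 genes tested were lower in every mated queen than in every CO2-treated or virgin queen by a set margin. They were chosen from the measured values themselves. Read counts were scaled to counts per 1000000 reads (CPM, with library sizes corrected by the TMM method of edgeR). A gene was kept if it averaged at least 1 CPM over the 12 libraries, if its highest mated value was at most 0.8 times its lowest value in the 8 other queens, and if its ranges in CO2-treated and virgin queens overlapped. Of the 15314 genes counted, 10893 reached the mean of 1 CPM, 97 of these had their highest mated value below the lowest other value, and 20 met the limit of 0.8. The last condition removed no gene. The mated values, and those of the 8 other queens, are therefore given below as a description, with no test. The same rule turned round, for genes higher in every mated queen, chose 65 genes.

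Each library came from the brain of 1 queen, with 4 queens in each of 3 groups. Mated queens were let out at 6 days of age and returned from a flight with signs of a successful mating. CO2-treated queens were caged together, made unconscious with carbon dioxide for 10 min at 6 days and again at 7 days of age, and put back into their colonies each time. Virgin queens were handled and caged in the same way with no narcosis. All 12 were sister queens of Australian commercial stock, raised from 1 source colony, kept in a small colony each, and taken at 8 days of age. The mated queens had developing eggs and stored semen, while CO2-treated and virgin queens had neither, so that flight, mating, the lack of caging and the state of the ovary cannot be told apart in the mated group. Every p-value below measures only the spread among such sisters.

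Total counts were between about 12434700 and 20677500 per library, and 3 counts, taken as the smallest detectable amount, were worth 0.134 to 0.271 CPM (counting error only). A single gene, GB49544, took 13.7% to 42.7% of the counts in mated queens, 1.12% to 5.02% in CO2-treated queens and 0.153% to 2.89% in virgin queens. The TMM factors were 0.556 to 1.03 in mated, 1.09 to 1.29 in CO2-treated and 1.06 to 1.37 in virgin queens. Of the neuron markers, the orthologs of the synaptic genes brp and syt were both detected in every library. They went opposite ways and neither passed the test described below, with brp at 0.606 CPM on average in mated, 1.31 CPM in CO2-treated and 1.87 CPM in virgin queens, and syt at 251 CPM in mated, 134 CPM in CO2-treated and 82.7 CPM in virgin queens. For markers of other tissues the sums overlapped between mated and virgin queens except in fat body and gland. The summed level of 4 fat body and gland markers was 9752 to 25318 CPM in mated, 5560 to 8673 CPM in CO2-treated and 2204 to 7151 CPM in virgin queens, and that of 15 muscle markers was 1335 to 19132 CPM in mated, 1181 to 10237 CPM in CO2-treated and 1399 to 7063 CPM in virgin queens, with a positive log2 fold change of mated queens for all 4 and all 15 genes in both comparisons. For 8 photoreceptor markers the sum was 71.2 to 267 CPM in mated, 86.2 to 192 CPM in CO2-treated and 155 to 867 CPM in virgin queens. All 8 had a negative log2 fold change of mated over virgin queens, and all 8 also of CO2-treated over virgin queens. Between mated and CO2-treated queens 3 were lower and 5 higher in mated queens. For 2 hemocyte markers the sum was 843 to 2647 CPM in mated, 775 to 3328 CPM in CO2-treated and 319 to 1446 CPM in virgin queens. Of these 29 markers, 1 of fat body and gland passed as higher in mated than in virgin queens (0.951% of all genes). None passed between mated and CO2-treated or between CO2-treated and virgin queens. At an unadjusted p under 0.05 there were 17, 7 and 5 in these comparisons (15.9%, 13.8% and 5.81% of all genes). DESeq2 called 2 lower and 5 higher in mated than in virgin queens (1.46% and 3.45%), 3 higher than in CO2-treated queens (2.38%), and 0 in the last comparison. These markers and both neuron markers were taken from the study's gene tables, drawn up from genes that differed between these same libraries. Their directions and counts are therefore partly set by that choice and are no measure of tissue content. None of these markers was at 0 in any library, and the part of these cells in the levels below was not tested. In whole brains, fewer cells of a type and less RNA per cell cannot be told apart.

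Genes were called by edgeR's quasi-likelihood test on all 12 queens, with Benjamini-Hochberg adjustment over 13038 genes and an adjusted p under 0.05. It called 0.253% of all genes lower and 0.951% higher in mated than in virgin queens, and 0.138% lower and 0.522% higher in mated than in CO2-treated queens. At an unadjusted p under 0.05 there were 15.9% of all genes between mated and virgin queens and 13.8% between mated and CO2-treated queens. Other tools called more genes. With tagwise dispersions, edgeR's exact test called 0.974% lower against virgin and 0.637% lower against CO2-treated queens. DESeq2 called 1.46% lower and 3.45% higher against virgin queens, and 0.851% lower and 2.38% higher against CO2-treated queens. The counts given below for groups of genes are to be read against these shares.

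Several of the 20 genes belong to families with known roles. Odorant receptors are membrane proteins of sensory neurons that bind volatile compounds, and odorant binding proteins are small secreted proteins that carry such compounds through the fluid around those neurons. Both families are best known from the antenna, and queens use smell in the recognition of workers, rivals and brood. Other members are orthologs of Drosophila enzymes and carriers of lipid, carbohydrate and amino acid metabolism. A Drosophila ortholog name was at hand for 15 of the 20 genes, 12 of them a CG number alone, and 1 gene had a honey bee symbol other than a locus number. The plot of levels by queen shows all 20 genes with the mated queens to the left of the 8 others.

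**Figure D1:**
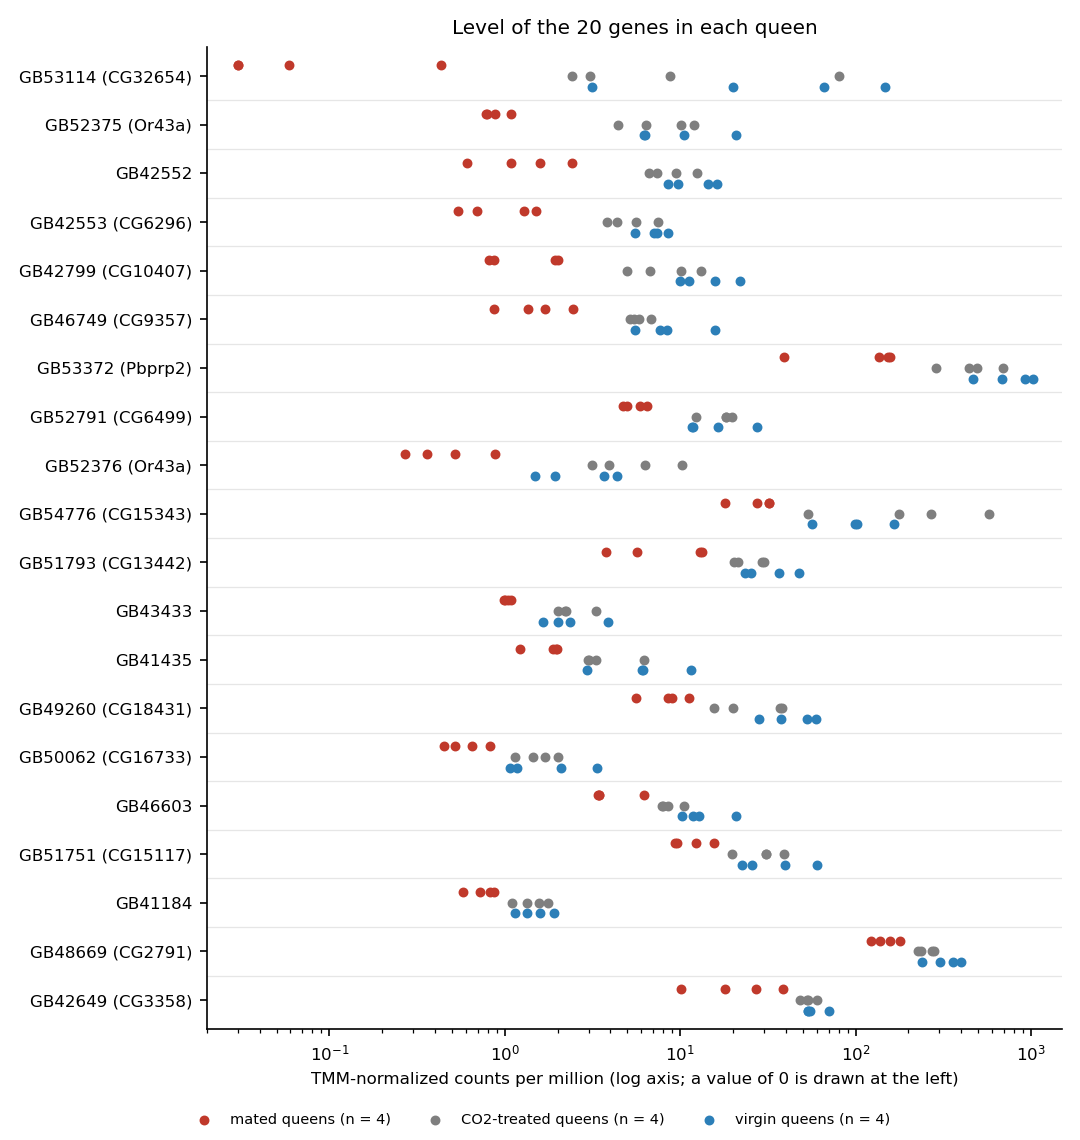
Level of each of the 20 genes in each queen, in TMM-normalized CPM on a log axis (points, 1 queen each, 4 per group; rows ordered by the ratio of the highest mated to the lowest other value, with the Drosophila ortholog in brackets; a value of 0 is drawn at the left). By the choice of the genes, every mated point lies left of all 8 others in its row, and the points of CO2-treated and virgin queens overlap in all 20 rows.

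The chemosensory members were both genes with the Drosophila ortholog Or43a, an odorant receptor, and the odorant binding protein Obp4. Values are given for mated queens 7, 6, 4 and 1, CO2-treated queens 5, 2, 1 and 7 and virgin queens 6, 4, 2 and 1, in that order throughout. GB52375 had 1.08, 0.783, 0.793 and 0.879 CPM in the mated queens, 6.41, 12.01, 10.1 and 4.39 CPM in the CO2-treated queens and 6.31, 10.6, 20.7 and 6.25 CPM in the virgin queens. The mated queens lay close together at about the same low level, while virgin queen 2 was the highest of the 8 others, whose groups overlapped. Group levels were 0.885 ± 0.140 CPM in mated, 8.23 ± 3.46 CPM in CO2-treated and 10.96 ± 6.81 CPM in virgin queens (SD, n = 4 each), and the log2 fold change of mated queens was -3.63 against virgin queens and -3.21 against CO2-treated queens. The second receptor, GB52376, had 0.271, 0.522, 0.360 and 0.879 CPM in the mated queens, 6.29, 3.95, 10.3 and 3.14 CPM in the CO2-treated queens and 1.94, 4.38, 3.70 and 1.49 CPM in the virgin queens. CO2 queen 1 was the highest of all, the mean was higher in CO2-treated queens than in virgin ones as in 2 other members, and its mated values rest on 3 to 15 reads per queen. Levels were 0.508 ± 0.268 CPM in mated, 5.91 ± 3.19 CPM in CO2-treated and 2.88 ± 1.39 CPM in virgin queens (SD, n = 4 each), with a log2 fold change of -2.45 against virgin queens and -3.48 against CO2-treated queens. Receptor genes of one family can be near-identical in sequence, and how reads were shared between such copies is not known here, so the split between both genes is uncertain.

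Obp4 (GB53372, with the Drosophila ortholog Pbprp2) had the highest mean count of the 20 genes. It had 158, 38.8, 153 and 136 CPM in the mated queens, 286, 493, 694 and 441 CPM in the CO2-treated queens and 678, 466, 922 and 1021 CPM in the virgin queens. Mated queen 6 was far below the other mated queens, and the lowest CO2-treated queen, CO2 5, was still above all of them. Levels were 121 ± 55.8 CPM in mated, 478 ± 168 CPM in CO2-treated and 771 ± 249.6 CPM in virgin queens (SD, n = 4 each), and the log2 fold change was -2.67 against virgin queens and -1.98 against CO2-treated queens.

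Other genes of both families were taken from the orthologs named in the study's gene tables, which were drawn up from these same libraries and so are no independent sample of the families. Of 8 further odorant receptor genes tested, 6 had a lower fitted level in mated queens than in virgin queens, and 5 did so relative to CO2-treated queens. With edgeR's quasi-likelihood test none of the 8 passed in either comparison, although 6 and 5 had an unadjusted p under 0.05 (15.9% and 13.8% of all genes). The smallest adjusted p values of edgeR were 0.0508 against virgin and 0.0531 against CO2-treated queens. Against virgin queens, 3 of the 8 passed as lower by edgeR's exact test (0.974% of all genes) and 4 by DESeq2 (1.46%), and against CO2-treated queens 4 passed by each (0.637% and 0.851%). The median log2 fold change of the 8 was -1.31 against virgin and -1.71 against CO2-treated queens, compared with -0.08 and -0.03 over all genes tested.

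The odorant binding proteins other than Obp4 numbered 5. All of them had a higher fitted level in mated queens in both comparisons, and 2 rose past the threshold against virgin queens (0.951% of all genes). GB46222 was near the smallest detectable amount, at 0.679 CPM on average in mated, 0.242 CPM in CO2-treated and 0.0929 CPM in virgin queens. GB46225 and GB46230 had 3.63 and 8.96 CPM in mated queen 1, within the virgin range and below every CO2-treated queen. GB46223, with the Drosophila ortholog Obp56d, averaged 1346 ± 836 CPM in mated, 42.8 ± 45.1 CPM in CO2-treated and 13.4 ± 21.2 CPM in virgin queens (SD, n = 4 each), a log2 fold change of 6.66 ± 1.45 (SE) against virgin queens (edgeR, adjusted p = 0.0437). GB46226, with the ortholog Obp56g, averaged 156 ± 86.7 CPM in mated, 33.9 ± 10.4 CPM in CO2-treated and 16.8 ± 14.5 CPM in virgin queens (SD, n = 4 each), a log2 fold change of 3.22 ± 0.72 (SE, edgeR, adjusted p = 0.0491). Against CO2-treated queens none of the 5 passed by that test, with 2 at an unadjusted p under 0.05, and 2 passed as higher by DESeq2 (2.38% of all genes). The lower level of Obp4 was set by the rule and is no comparison with them.

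Among members linked to membranes or transport, GB53114 had the lowest ratio of the highest mated to the lowest other value, 0.179. It is listed with the Drosophila ortholog CG32654 and the term membrane. GB53114 had 0, 0, 0.433 and 0.0586 CPM in the mated queens, 80.02, 8.78, 3.06 and 2.42 CPM in the CO2-treated queens and 147, 3.14, 19.9 and 65.9 CPM in the virgin queens. Its mated values come from 7 reads in all, with 0 in mated queens 7 and 6, while CO2-treated and virgin queens differed widely among themselves. Levels were 0.123 ± 0.208 CPM in mated, 23.6 ± 37.7 CPM in CO2-treated and 59.1 ± 64.6 CPM in virgin queens (SD, n = 4 each), and without CO2 queen 5 the CO2-treated mean was 4.76 ± 3.50 CPM (SD, n = 3). The fitted log2 fold change was -8.75 against virgin queens and -7.42 against CO2-treated queens, values that rest on those few mated reads.

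GB52791, with the ortholog CG6499 and the term transporter activity, had 4.70, 4.96, 5.91 and 6.45 CPM in the mated queens, 18.1, 12.3, 18.3 and 19.8 CPM in the CO2-treated queens and 11.7, 11.8, 27.2 and 16.4 CPM in the virgin queens. CO2-treated and virgin queens had nearly equal means, and virgin queen 2 was again the highest of all. Levels were 5.50 ± 0.816 CPM in mated, 17.1 ± 3.30 CPM in CO2-treated and 16.8 ± 7.29 CPM in virgin queens (SD, n = 4 each), with a log2 fold change of -1.61 against virgin queens and -1.63 against CO2-treated queens. GB48669 is listed with CG2791, which in Drosophila encodes the heavy chain of a CD98-type amino acid transporter. It had 137, 123, 158 and 179.6 CPM in the mated queens, 236, 271, 225 and 281 CPM in the CO2-treated queens and 399.8, 304, 359 and 240.2 CPM in the virgin queens. At a ratio of 0.797 it was among the 3 members nearest the limit, and mated queen 1 and CO2 queen 1 were the closest to each other. Levels were 149 ± 24.7 CPM in mated, 253 ± 26.7 CPM in CO2-treated and 326 ± 69.3 CPM in virgin queens (SD, n = 4 each), and the log2 fold change was -1.12 against virgin queens and -0.76 against CO2-treated queens.

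The metabolic members included a lipase and a chitinase-type gene. GB42553, with the ortholog CG6296 and the term lipase activity, had 0.542, 0.696, 1.51 and 1.29 CPM in the mated queens, 4.39, 5.56, 7.44 and 3.81 CPM in the CO2-treated queens and 5.52, 7.08, 8.48 and 7.33 CPM in the virgin queens. CO2 queens 2 and 1 lay within the range of the virgin queens, and CO2 queens 5 and 7 below it. Levels were 1.01 ± 0.465 CPM in mated, 5.30 ± 1.60 CPM in CO2-treated and 7.10 ± 1.22 CPM in virgin queens (SD, n = 4 each), with a log2 fold change of -2.78 against virgin queens and -2.36 against CO2-treated queens. GB46749 is listed with CG9357, a gene of the chitinase family in Drosophila, whose enzymes cut the polymer chitin. It had 1.35, 0.870, 2.45 and 1.70 CPM in the mated queens, 5.48, 6.81, 5.19 and 5.83 CPM in the CO2-treated queens and 5.52, 7.64, 15.7 and 8.45 CPM in the virgin queens. The 4 CO2-treated queens were close together, and virgin queen 2 was well above the rest. Levels were 1.59 ± 0.665 CPM in mated, 5.83 ± 0.705 CPM in CO2-treated and 9.33 ± 4.42 CPM in virgin queens (SD, n = 4 each), and the log2 fold change was -2.53 against virgin queens and -1.86 against CO2-treated queens.

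GB54776, with the ortholog CG15343 and the term cofactor binding, differed most between CO2-treated and virgin queens on the high side. It had 31.97, 17.9, 32.2 and 27.5 CPM in the mated queens, 579, 176, 53.6 and 269 CPM in the CO2-treated queens and 166, 99.6, 102 and 56.5 CPM in the virgin queens. CO2 queen 5 was the highest and CO2 queen 1 the lowest of the 8 queens that were not mated, so that the CO2-treated queens spanned the whole virgin range. Levels were 27.4 ± 6.66 CPM in mated, 269 ± 224 CPM in CO2-treated and 106 ± 45.1 CPM in virgin queens (SD, n = 4 each), with a log2 fold change of -1.95 against virgin queens and -3.30 against CO2-treated queens. GB42799 is listed with CG10407, of the takeout-like family of secreted proteins in Drosophila. It had 0.813, 0.870, 2.02 and 1.93 CPM in the mated queens, 6.70, 4.99, 13.1 and 10.1 CPM in the CO2-treated queens and 11.2, 9.94, 21.9 and 15.7 CPM in the virgin queens. Its values in CO2 queens 5 and 2 lay below every virgin queen, and those in CO2 queens 1 and 7 within the virgin range. Levels were 1.41 ± 0.656 CPM in mated, 8.72 ± 3.60 CPM in CO2-treated and 14.7 ± 5.39 CPM in virgin queens (SD, n = 4 each), with a log2 fold change of -3.35 against virgin queens and -2.60 against CO2-treated queens.

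Of the members, GB46749, GB48669 and GB51751 carry the term carbohydrate metabolic process, and GB51751 (ortholog CG15117) also that of starch and sucrose metabolism. The other genes with this term were looked up after the values were seen, and the term lists were made from genes that differed between these same libraries. Of the 28 other genes tested, 24 had a higher and 4 a lower fitted level in mated than in virgin queens, with 5 higher and 1 lower past the threshold of edgeR's quasi-likelihood test (0.951% and 0.253% of all genes). DESeq2 called 16 higher and 3 lower (3.45% and 1.46% of all genes). Against CO2-treated queens 23 were higher and 5 lower, and none passed by that test, with 16 at an unadjusted p under 0.05 (13.8% of all genes) and 4 higher past the threshold by DESeq2 (2.38%). The median log2 fold change of the 28 was 1.44 against virgin and 0.76 against CO2-treated queens. The direction of the 3 members was set by the rule.

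Of the members without a listed ortholog, GB42552 had the lowest ratio. It had 1.08, 0.609, 1.59 and 2.40 CPM in the mated queens, 6.64, 9.41, 12.4 and 7.39 CPM in the CO2-treated queens and 8.47, 16.1, 14.3 and 9.74 CPM in the virgin queens. The order of the mated queens, with mated 6 lowest and mated 1 highest, left a gap to the lowest other queen, CO2 5. Levels were 1.42 ± 0.767 CPM in mated, 8.97 ± 2.59 CPM in CO2-treated and 12.2 ± 3.64 CPM in virgin queens (SD, n = 4 each), and the log2 fold change was -3.07 against virgin queens and -2.63 against CO2-treated queens. Near the limit, GB41184 had 0.723, 0.870, 0.577 and 0.820 CPM in the mated queens, 1.10, 1.77, 1.56 and 1.34 CPM in the CO2-treated queens and 1.15, 1.91, 1.33 and 1.59 CPM in the virgin queens. These values come from 8 to 14 reads in a mated queen, and the gap from the highest mated to the lowest other queen was smaller than the SD within either of the other groups. Levels were 0.747 ± 0.129 CPM in mated, 1.44 ± 0.288 CPM in CO2-treated and 1.49 ± 0.330 CPM in virgin queens (SD, n = 4 each), with a log2 fold change of -0.996 against virgin queens and -0.94 against CO2-treated queens. GB42649, with the ortholog CG3358, had 27.1, 18.1, 10.1 and 38.3 CPM in the mated queens, 60.3, 47.9, 52.7 and 53.7 CPM in the CO2-treated queens and 53.2, 55.2, 70.6 and 53.3 CPM in the virgin queens. The mated queens were the more variable group here, while CO2-treated and virgin queens lay close together except for virgin queen 2. Levels were 23.4 ± 12.1 CPM in mated, 53.6 ± 5.09 CPM in CO2-treated and 58.1 ± 8.39 CPM in virgin queens (SD, n = 4 each), with a log2 fold change of -1.31 against virgin queens and -1.19 against CO2-treated queens.

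The remaining 7 members had ratios between those of the members above. GB51793 (CG13442) ranged over 3.79 to 13.3 CPM in the mated queens, 20.3 to 30.1 CPM in the CO2-treated queens and 23.4 to 47.4 CPM in the virgin queens. GB49260 (CG18431) ranged over 5.62 to 11.2 CPM in the mated queens, 15.5 to 38.3 CPM in the CO2-treated queens and 28.2 to 59.6 CPM in the virgin queens. GB51751 covered 9.30 to 15.5 CPM in the mated queens, 19.6 to 38.9 CPM in the CO2-treated queens and 22.5 to 60.00 CPM in the virgin queens. In these 3 genes the lowest of the other queens was a CO2-treated queen. GB50062 (CG16733) averaged 0.611 ± 0.162 CPM in mated, 1.57 ± 0.365 CPM in CO2-treated and 1.93 ± 1.06 CPM in virgin queens (SD, n = 4 each). GB43433 had 0.994 to 1.08 CPM in the mated queens, 2.02 to 3.31 CPM in the CO2-treated queens and 1.65 to 3.89 CPM in the virgin queens. GB41435 had 1.22 to 1.99 CPM in the mated queens, 2.96 to 6.19 CPM in the CO2-treated queens and 2.94 to 11.6 CPM in the virgin queens. In these 3 it was virgin queen 6 that came nearest to the mated queens. GB46603 had 3.39 to 6.21 CPM in the mated queens, 7.91 to 10.5 CPM in the CO2-treated queens and 10.2 to 20.9 CPM in the virgin queens, with mated queen 1 well above the other mated queens. Just inside the limit of 0.8 lay GB42649, GB48669 and GB41184, with ratios of 0.7996, 0.797 and 0.793. Just outside it were GB42272 (Sans, a gene of ciliated sensory cells in Drosophila), GB53087 and GB48871 (Pole2, a DNA polymerase subunit), with ratios of 0.8002, 0.803 and 0.806. No gap in the ratios separates the 20 genes from the genes that follow.

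Over the 20 genes the log2 fold change of mated queens had a median of -1.94 against virgin queens (-8.75 to -0.996) and of -1.66 against CO2-treated queens (-7.42 to -0.76). Both comparisons use the same 4 mated queens. The quasi-likelihood test called 15 of the 20 against virgin queens, where it called 0.253% of all genes lower, and 9 of the 20 against CO2-treated queens, where it called 0.138% of all genes lower. Since the rule chose the genes on these comparisons, nothing is read from these counts. Both calls were made for 8 genes (GB52375, GB42552, GB42553, GB42799, GB46749, GB52791, GB52376 and GB49260), the first alone for 7, the second alone for GB54776, and neither for 4. Without 1 queen the count against virgin queens ran from 6 (virgin 2) to 17 (virgin 6), with 7 without mated 7 and 7 without mated 6. The count against CO2-treated queens ran from 2 (mated 7) to 11 (mated 1), with 3 without mated 6, 4 without CO2 7 and 5 without CO2 1.

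Between CO2-treated and virgin queens the 20 genes had a median log2 fold change of -0.41 (CO2-treated over virgin), against -0.02 over all genes. The CO2-treated mean was lower than the virgin mean in 17 genes, where it lay between the mated and virgin means, and higher in 3 (GB52791, GB52376 and GB54776). In 11 genes both means were within 1.5 times of each other. None of the 20 passed the quasi-likelihood test, which called 0.0153% of all genes in this comparison. At an unadjusted p under 0.05 there were 3 (5.81% of all genes). By edgeR's exact test with tagwise dispersions and by DESeq2 none passed (0.13% and 0.153% of all genes), and with a common dispersion the exact test called 2 (1.15%). The rule asks for overlapping ranges of these groups, so that this count too is a description. The plot of group means shows the CO2-treated mean between the mated and virgin means in 17 rows. Over the 20 genes the ratio of the CO2-treated to the virgin mean ran from 0.399 to 2.54, with a median of 0.756.

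**Figure D2:**
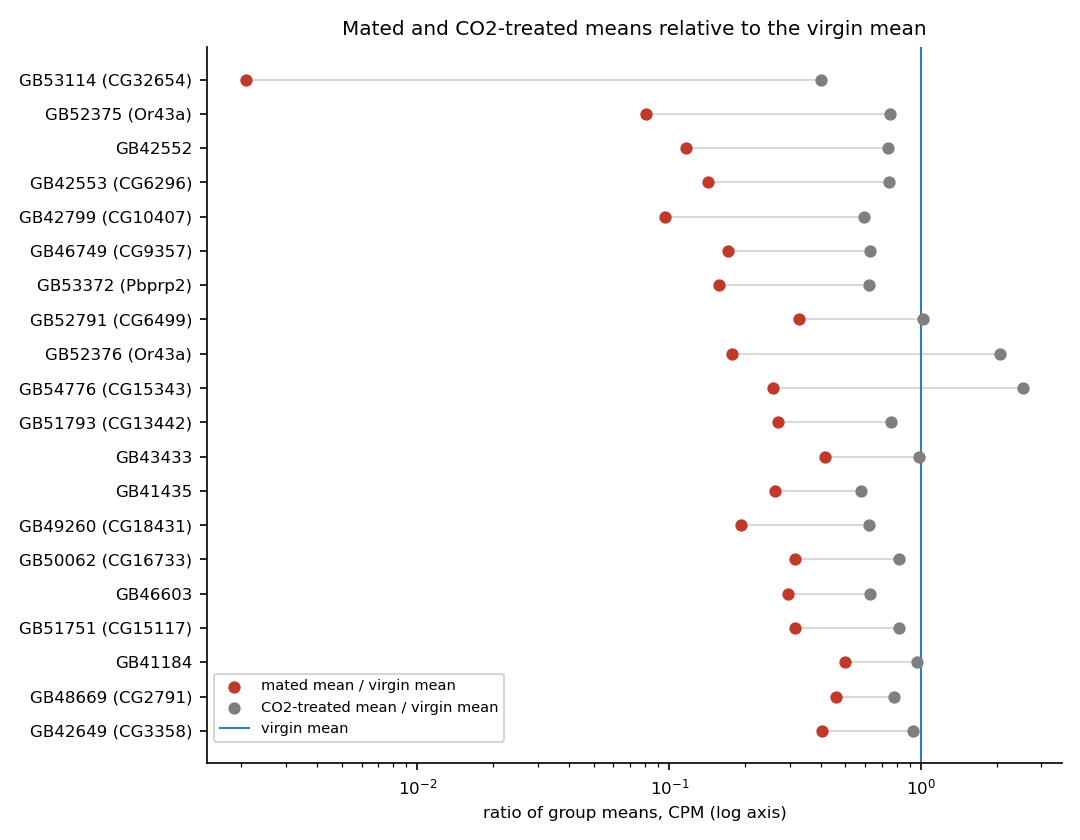
Mean level of mated queens (red) and of CO2-treated queens (grey) divided by the mean of virgin queens (vertical line), in CPM on a log axis, for each of the 20 genes (n = 4 queens per mean). The CO2-treated mean lies between the other means in 17 rows and right of the virgin mean in 3.

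Single queens came closest to the limit unevenly. The lowest value of the 8 other queens belonged to a CO2-treated queen in 15 genes and to a virgin queen in 5. Among them CO2 queen 5 was lowest in 6 genes and virgin queen 6 in 4, while virgin queens 4 and 2 were lowest in none. Of the mated queens, mated 4 was the highest in 8 genes, mated 1 in 7, mated 7 in 4 and mated 6 in 1. The lowest mated value was that of mated 7 or mated 6 in 17 of the 20. Relative to the mean of the 8 other queens, the median log2 level of the 20 genes was -1.99 in mated queen 6, -1.80 in mated queen 7, -1.60 in mated queen 4 and -1.49 in mated queen 1. In the same queens GB49544 took 42.7%, 32.9%, 23.2% and 13.7% of the counts, which is the same order. With 4 queens no relation was tested, and the part of GB49544 in the levels was not tested beyond the scaling given next.

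The choice of genes was close to the same under DESeq2's size factors and under upper-quartile factors, each with 19 genes chosen and 18 of the 20 kept, but not under scaling by totals. Without TMM factors, on total counts alone, the rule chose 152 genes, all 20 among them. Under that scaling all genes tested had a median log2 fold change of -0.79 against virgin and -0.67 against CO2-treated queens, compared with -0.08 and -0.03 with TMM. With it, 4238 genes were called lower and 160 higher in mated than in virgin queens, compared with 33 and 124 with TMM, and 73 lower and 24 higher in mated than in CO2-treated queens, compared with 18 and 68. With GB49544 left out of the totals and no TMM factors, an alternative added after the data were seen, the rule chose 28 genes and kept 16 of the 20. Then 54 genes were called lower and 89 higher against virgin queens, and 22 and 50 against CO2-treated queens. Of the members, GB50062, GB46603, GB48669 and GB42649 were not chosen under that scaling. Over 18 settings of scaling, low-count filter and left-out queens, 13 of the 20 genes were chosen in every one, and GB46603 in the fewest, 14. Leaving out a queen can only loosen the ratio limit, apart from refitted scaling, the mean and the overlap of ranges. Members kept in those settings, and a rise in the number chosen, therefore follow largely from the form of the rule. Leaving out mated queen 1 gave 99 genes, mated queen 4 gave 33, mated queen 6 gave 31 and virgin queen 6 gave 36, as the plot of settings shows.

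**Figure D3:**
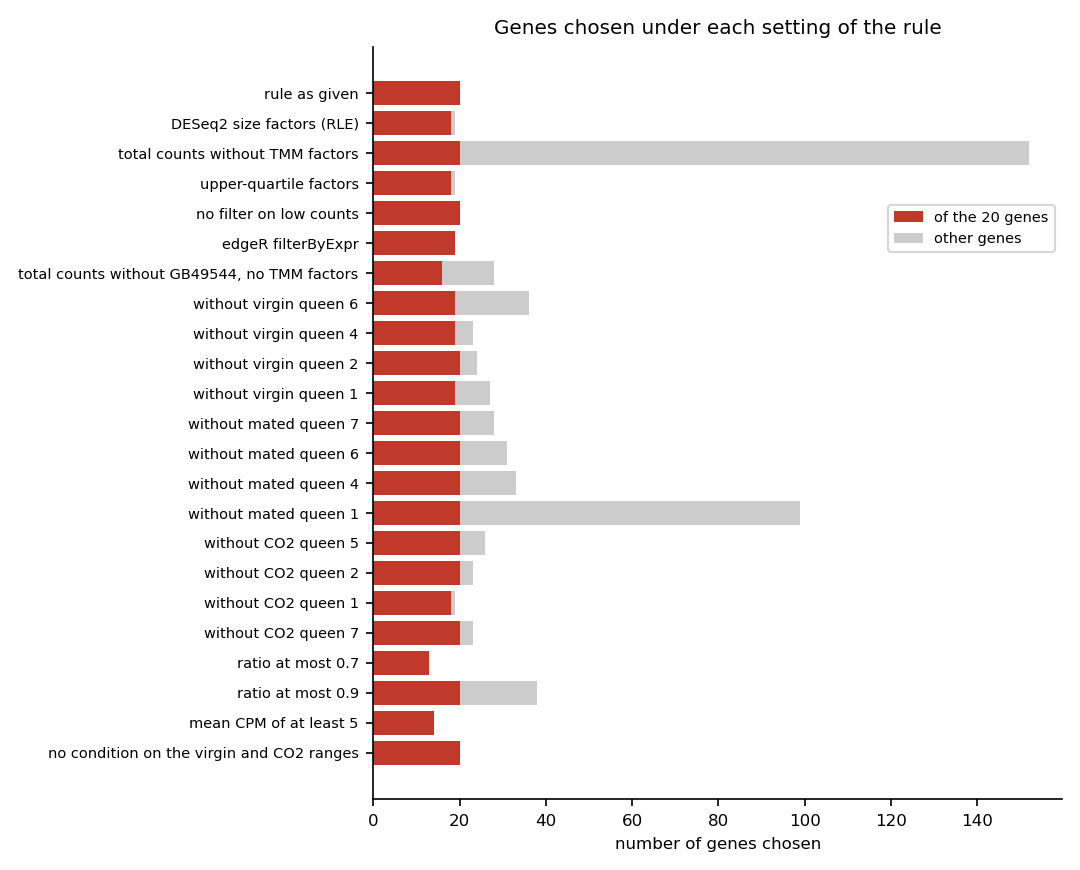
Number of genes chosen under each setting of the rule (bars from 0), split into those among the 20 genes (red) and other genes (grey). The longest bars are total counts without TMM factors, with 152 genes, and the rule without mated queen 1, with 99.

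The 20 genes were mostly sparse. Their mean levels ran from 1.23 to 457 CPM with a median of 8.59 CPM, compared with a median of 29.8 CPM over all genes that reached 1 CPM, and CPM is not corrected for gene length. In 11 genes the 4 mated libraries held fewer than 100 reads together, and in 5 fewer than 50. Together the 20 genes made up 0.0132% to 0.0450% of the counts in mated queens, 0.126% to 0.158% in CO2-treated queens and 0.129% to 0.240% in virgin queens. The median coefficient of variation between queens was 30.2% in mated, 27.7% in CO2-treated and 38.2% in virgin queens. Over all genes that reached 1 CPM it was 25.8%, 16.2% and 31.9% in the same groups, lower in each. The comparison was not matched for level, and counting error is larger in sparse genes.

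Between the 8 queens that were not mated, the members did not form one block. Over the 190 pairs of genes, Pearson's r of log2(CPM + 0.5) ran from -0.84 to 0.91 with a median of 0.25. It was above 0.5 in 60 pairs and below -0.5 in 11, and with the group means removed in 52 and 15. The points are whole libraries and so share depth and tissue makeup, and the genes were chosen on the same queens, so r is given with no test. The closest pairs were GB52791 with GB50062 (r = 0.91) and GB42552 with GB49260 (r = 0.90). GB42552 and GB42553, which have consecutive IDs, had r = 0.85. Obp4 followed GB51793 (r = 0.85) and ran against GB54776 (r = -0.83). GB54776 was negative with 15 of the 19 other members, as its row in the plot of co-variation shows. Both Or43a orthologs had r = 0.30 with each other.

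**Figure D4:**
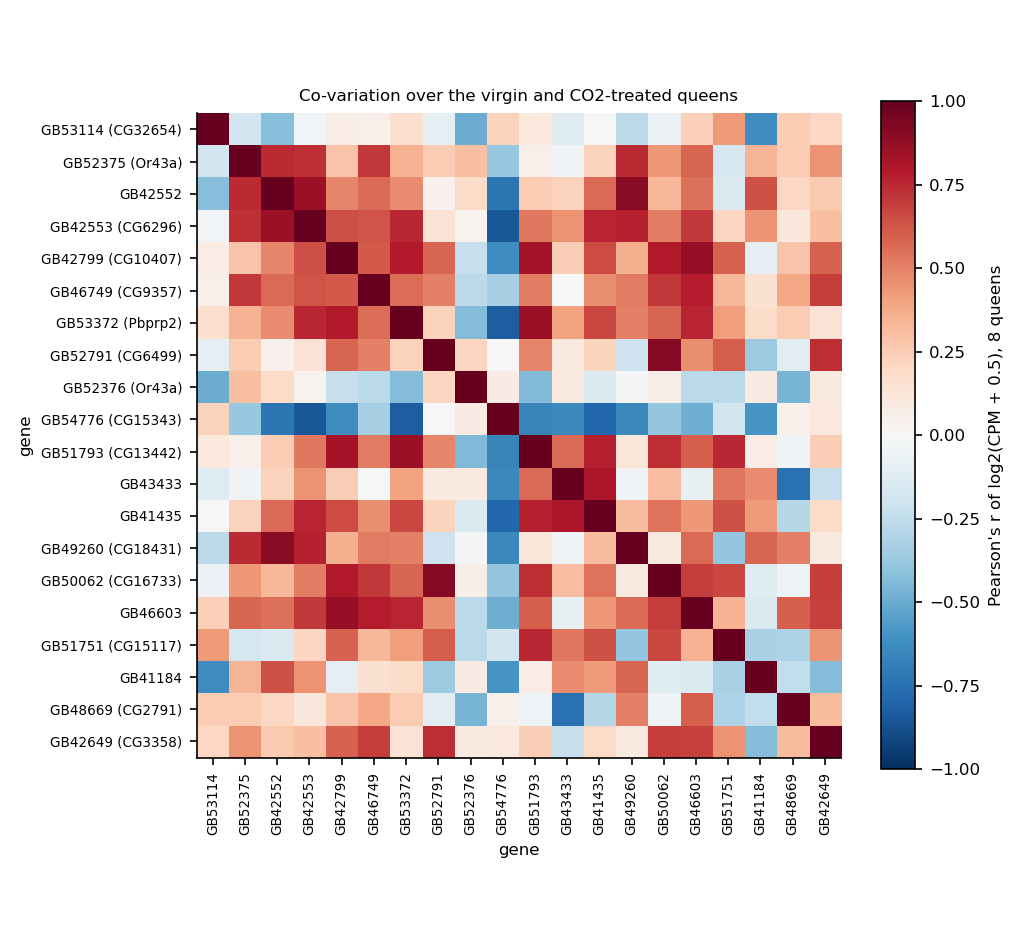
Pearson's r between each pair of the 20 genes over the 8 CO2-treated and virgin queens, on log2(CPM + 0.5) (colour, -1 to 1; rows and columns in the same order as in the plot of levels). Most cells are positive, with a median r of 0.25, and the row of GB54776 is negative in 15 of 19 cells.

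Gene IDs of this set are numbered in runs, and 4 members stand next to another member by number, GB52375 with GB52376 and GB42552 with GB42553. No map of this gene set was used here, so the numbers are read only as numbers. Of the IDs directly before or after a member that are no members, 34 were tested. Their log2 fold change against virgin queens was negative in 23 and positive in 11, with a median of -0.29, and against CO2-treated queens negative in 21 and positive in 13, with a median of -0.20. None passed edgeR's quasi-likelihood test in either comparison, with 10 and 8 at an unadjusted p under 0.05 (15.9% and 13.8% of all genes). By edgeR's exact test with tagwise dispersions 3 were called in each, all lower in mated queens (0.974% and 0.637% of all genes). DESeq2 called 3 lower in each (1.46% and 0.851% of all genes) and 1, GB49259, higher in mated than in virgin queens (3.45%). Without 1 queen the count against virgin queens was 2 (virgin 6), 1 (virgin 4, mated 1 or CO2 5) or 0 (any other queen). Against CO2-treated queens it ran from 0 to 1, with 1 without virgin 4 or mated 1.

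By number, both Or43a orthologs are followed by 3 genes with odorant receptor orthologs, GB52377 (Or13a), GB52378 (Or85c) and GB52380 (Or85b). These 3 are among the further odorant receptor genes counted above, and GB52374 and GB52377 are among the adjacent IDs. The counts for this run are therefore not separate from those. In the run of 13 IDs that includes GB52375 and GB52376, 9 of the 11 other genes had a lower fitted level in mated queens than in virgin queens, and 10 of the 11 did so relative to CO2-treated queens. None of the 11 passed the quasi-likelihood test, with 5 and 6 at an unadjusted p under 0.05 (15.9% and 13.8% of all genes), and DESeq2 called 3 and 4 as lower (1.46% and 0.851%). The nearest of them, GB52377, had 0.994, 1.39, 1.73 and 3.28 CPM in the mated queens, 8.72, 5.51, 11.4 and 4.17 CPM in the CO2-treated queens and 3.80, 7.19, 7.10 and 6.35 CPM in the virgin queens. Every mated queen was below all 8 others, and mated queen 1 was close enough to virgin queen 6 to keep the gene outside the rule. Its log2 fold change was -1.70 ± 0.42 (SE) against virgin queens and -1.98 ± 0.42 (SE) against CO2-treated queens, and it did not pass the quasi-likelihood test (edgeR, adjusted p = 0.0725 and 0.0531). The exact test with tagwise dispersions and DESeq2 both called GB52377 in both comparisons.

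Next to GB53114 by number, GB53115 (ortholog CG31496) behaved much like it in mated queens. It had 0.271, 0.0870, 0.0721 and 0 CPM in the mated queens, 132, 7.85, 4.81 and 6.18 CPM in the CO2-treated queens and 50.5, 0.168, 7.94 and 74.9 CPM in the virgin queens. All mated queens were near 0 but so was virgin queen 4, which put GB53115 outside the rule. It was chosen once virgin queen 4 or mated queen 7 was left out. Its log2 fold change was -8.34 ± 1.96 (SE) against virgin queens and -8.52 ± 1.96 (SE) against CO2-treated queens (edgeR, adjusted p = 0.0624 and 0.0746). Over the 8 queens that were not mated, the log2 levels of GB53114 and GB53115 had r = 0.86, again a description of these libraries. All 8 other tested genes of the run of IDs around GB53114 were fitted lower in mated than in virgin queens. Relative to CO2-treated queens 7 were lower and 1 higher. Of them GB53110 and GB53113 had 24 and 11 reads over all 12 libraries, with log2 fold changes of -0.43 ± 0.98 and -0.48 ± 1.51 (SE) against virgin queens. None of the 8 passed the quasi-likelihood test in either comparison. Against virgin queens 3 had an unadjusted p under 0.05 (15.9% of all genes) and DESeq2 called 2 lower (1.46%). Against CO2-treated queens these counts were 4 (13.8%) and 2 (0.851%).

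Near GB42552 and GB42553 the numbers held genes of both directions. The 5 IDs before them had log2 fold changes from -0.59 to -0.47 against virgin queens, and none of these passed. A little further on, GB42556 had 143, 211, 302 and 259 CPM in the mated queens, 38.3, 9.93, 11.9 and 13.1 CPM in the CO2-treated queens and 50.1, 3.26, 10.7 and 14.2 CPM in the virgin queens. Every mated queen was above all 8 others. GB42556 was higher in mated queens by a log2 fold change of 3.55 ± 0.70 (SE) against virgin queens and 3.64 ± 0.71 (SE) against CO2-treated queens (edgeR, adjusted p = 0.0286 and 0.0338). GB42557, whose ortholog CG13618 is of the same takeout-like family as that of the member GB42799, rose with it by 3.62 ± 0.68 (SE) against virgin queens and 3.55 ± 0.68 (SE) against CO2-treated queens (edgeR, adjusted p = 0.0226 and 0.0319). Consecutive numbers thus held genes of opposite directions here, as the plot of consecutive IDs shows.

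**Figure D5:**
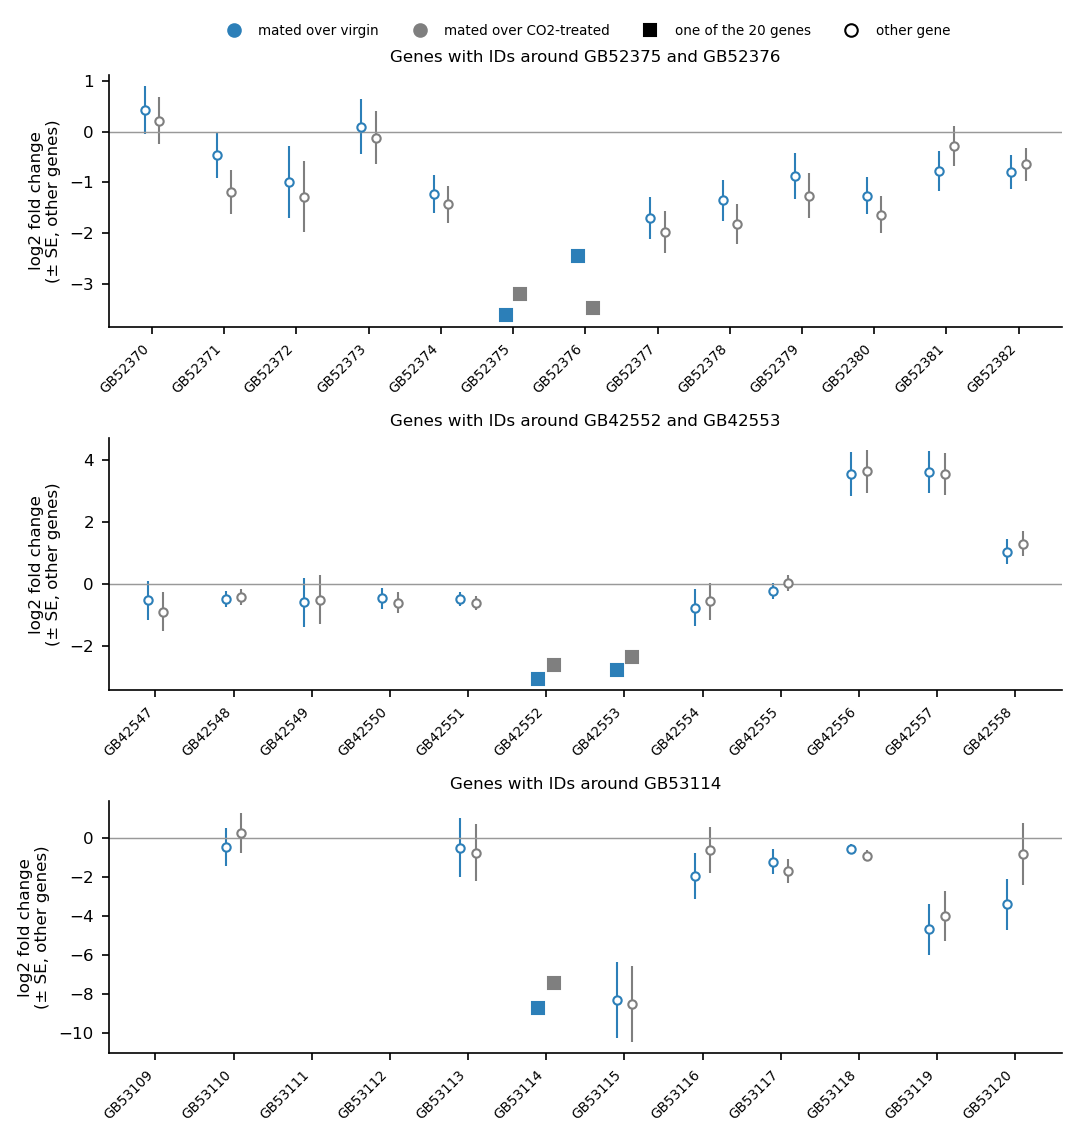
Log2 fold change of mated over virgin queens (blue) and of mated over CO2-treated queens (grey) for genes with consecutive IDs around GB52375 and GB52376, GB42552 and GB42553, and GB53114 (squares, members; open circles with SE, other genes; IDs with too few reads left blank). GB53115 lies next to GB53114 at -8.34 and -8.52, and GB42556 and GB42557 lie above 0 near both lower members.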

How the data were processed

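RNA from 12 single queen brains was sequenced as 50-base single-end reads. The authors trimmed reads with Trimmomatic, removed ribosomal reads with SortMeRna, aligned the rest with TopHat to assembly 4.5 of the honey bee genome and took counts per gene with SAMtools idxstats. The deposited raw counts of 15314 genes were used as they are, and a second deposited table of rescaled values was not used. Which queens shared a lane was not analysed here.

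The 13038 genes whose counts summed to 10 or more were scaled by TMM and tested with edgeR 4.0.16 in R 4.3.3, by the quasi-likelihood F-test on all queens in 3 groups, adjusted by Benjamini-Hochberg over all genes, with a threshold of 0.05. The SE of a log2 fold change was taken as its size over the root of the F statistic. Alternatives were DESeq2 1.42.0, edgeR's exact tests, other scalings and filters, a 2-group fit, the queen number as a block, and fits that leave out 1 queen. The quasi-likelihood fit and the rule, but not DESeq2 or the exact tests, were tested on simulated data. Figures were made with matplotlib 3.10.9. No sequences were used.

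The members and the gene lists were chosen with earlier results of these data known. Genes named are the 10 members with the lowest ratio, the 5 with the highest mean CPM, those in a gene list or with an ortholog or symbol name, those with adjacent IDs, and the 3 nearest the limit on each side. The other 7 members, and the non-members named for their place beside them, fall outside that rule and were named after their values were seen. Ortholog names and terms come from the study's gene tables. Of 1088 genes in those tables, 480 had a RefSeq accession and 222 matched a gene of assembly Amel_HAv3.1, used for names only.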

Additional observations from a re-analysis of the deposited data

Results flagged for a closer look

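Within each group of 4 queens the highest and lowest CPM of the 20 genes were set against the rest by Dixon's test. Of 60 groups tested, 7 held a queen far from the others. The nominal rate of about 1 in 20 holds for independent normal values. The values here are unlogged CPM, some from few reads, of genes chosen on these same libraries, so no excess is read from the count. GB53114 had 0.433 CPM in mated queen 4, compared with 0 to 0.0586 CPM in the other mated queens, and 80.02 CPM in CO2 queen 5, compared with 2.42 to 8.78 CPM in the other CO2-treated queens. GB43433 had 3.31 CPM in CO2 queen 1, compared with 2.02 to 2.24 CPM. GB41435 had 1.22 CPM in mated queen 6, compared with 1.87 to 1.99 CPM, and 6.19 CPM in CO2 queen 1, compared with 2.96 to 3.29 CPM. GB46603 had 6.21 CPM in mated queen 1, compared with 3.39 to 3.46 CPM. GB42649 had 70.6 CPM in virgin queen 2, compared with 53.2 to 55.2 CPM in the other virgin queens. CO2 queen 1 was the queen far from its group in 2 of the 7 cases and each other queen named here in 1.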

How the results depend on the processing

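The number of genes chosen was 20, and 152 on total counts without TMM factors, 13 with a ratio limit of 0.7, 38 with a limit of 0.9, and 19 to 99 with 1 queen left out. The number of the 20 genes called against virgin queens was 15, and 9 in a fit to only the 2 groups compared, 8 with the queen number as a block and 6 to 17 with 1 queen left out. This number was 20 on total counts without TMM factors, 19 by the exact test with tagwise dispersions, 18 with a common one and 19 by DESeq2. Against CO2-treated queens it was 9, and 0 with the block, 14 by the exact test with tagwise dispersions or with a common one, 17 by DESeq2 and 2 to 11 with 1 queen left out. Between CO2-treated and virgin queens it was 0, and 2 by the exact test with a common dispersion. Of the genes with adjacent IDs, none was called against virgin queens, and 16 were on total counts, 1 with GB49544 left out of the totals, 1 with the block, 3 by each exact test, 4 by DESeq2 and 0 to 2 with 1 queen left out. Against CO2-treated queens none was called, and 5 were on total counts, 3 and 2 by the exact tests with tagwise and common dispersions, 3 by DESeq2 and 0 to 1 with 1 queen left out. Over all genes, 157 were called against virgin queens, and with 1 queen left out this ran from 8 lower and 20 higher without virgin queen 2 to 86 lower and 193 higher without virgin queen 6. Against CO2-treated queens 86 were called, and this ran from 4 lower and 14 higher without mated queen 7 to 51 lower and 128 higher without mated queen 1. The cause of these shifts was not tested. The median log2 fold change of the 20 genes kept its sign under all these settings, at -2.14 to -1.85 against virgin queens and -1.80 to -1.56 against CO2-treated queens with 1 queen left out. Of 920 single fold changes under the alternatives none changed sign, 770 stayed on the same side of the threshold, 103 lost and 47 gained a call. Since the rule chose the genes for a lower level in every mated queen, the kept signs are no test. The queen numbers name different animals in each group, and no pairing is stated for them. The labels of virgin queen 1, mated queen 1, CO2 queen 2 and CO2 queen 1 also carry the suffix br, whose part was not tested. The deviations of same-numbered queens from their group means had a mean r of 0.20 over 7 pairs (-0.32 to 0.59). Over the 41 other pairs between groups the mean r was -0.03 (-0.71 to 0.43). Whether the numbers mark a shared factor was not tested. The block leaves 4 residual degrees of freedom. Depth limits the sparse members most, since 5 of them rest on fewer than 50 mated reads.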

Other observations

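Of 3 genes of dopamine, serotonin and pterin metabolism, 2 had their highest mated value below all other queens without meeting the limit of the rule. Of the 10893 genes that reached 1 CPM, 97 had their highest mated value below all other queens, the 20 members included. The 3 genes come from the study's gene tables, drawn up from genes that differed between these same libraries. They are therefore no independent sample of this metabolism. Dat (GB51044, the ortholog of an arylalkylamine N-acetyltransferase that inactivates monoamines in Drosophila) had 72.1, 120.0, 120.1 and 107 CPM in the mated queens, 166, 149, 177 and 144 CPM in the CO2-treated queens and 227, 140.0, 368 and 289 CPM in the virgin queens. Every mated queen was below all 8 others, at a ratio of 0.858 between the highest mated and the lowest other value. Dat was lower in mated than in virgin queens by a log2 fold change of -1.29 ± 0.27 (SE, edgeR, adjusted p = 0.0382), while the difference from CO2-treated queens, -0.60 ± 0.27 (SE), did not pass (edgeR, adjusted p = 0.347). Trh (GB44366, the ortholog of tryptophan hydroxylase, which starts serotonin synthesis) averaged 11.5 ± 3.07 CPM in mated, 19.3 ± 2.35 CPM in CO2-treated and 28.7 ± 12.6 CPM in virgin queens (SD, n = 4 each) at a ratio of 0.894, with an adjusted p of 0.0550 against virgin and 0.297 against CO2-treated queens (edgeR). All 3 genes of the list had negative log2 fold changes of mated queens in both comparisons, and 1 passed, against virgin queens (0.253% of all genes called lower).

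Pole2 (GB48871), the farthest of the 3 genes named just outside the limit, had 8.40, 10.2, 3.39 and 17.3 CPM in the mated queens, 25.6, 27.5, 31.8 and 31.5 CPM in the CO2-treated queens and 33.1, 29.5, 56.7 and 21.5 CPM in the virgin queens. It was lower in mated than in virgin queens by a log2 fold change of -1.84 ± 0.41 (SE, edgeR, adjusted p = 0.0491) and did not pass against CO2-treated queens (adjusted p = 0.126). It was the 1 gene past the threshold among 7 of histones and DNA replication (0.253% of all genes called lower). These 7 come from the study's gene tables, drawn up from genes that differed between these same libraries. In mated queens 4 were fitted lower and 3 higher relative to virgin queens, and 6 lower and 1 higher relative to CO2-treated queens. The rule chose Pole2 under DESeq2's size factors and under upper-quartile factors, among other settings.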
